A study of Mus musculus with 12 samples.

Results

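The enzymes that build cholesterol and fatty acids, and the proteins that set their transcription, were followed in prostate tumours grown in mice without p62 and in wild-type mice. The list names 34 genes, taken by symbol, and 33 of them had a probe set with exactly 1 gene symbol, out of 19937 genes measured this way. Acat2, the cytosolic thiolase that opens the pathway, has no such probe set and is not analysed here. The list covers 16 measured genes of the cholesterol branch, 11 of the fatty acid branch and 6 regulators and carriers of sterol.

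The mouse prostate carcinoma line TRAMP-C2Re3 was injected into the prostate at 50000 cells per mouse, and the tumours were taken at day 60. The 6 KO hosts were p62 KO mice and the 6 WT hosts were wild-type mice, both on the C57BL6 background, with 1 tumour and 1 single-colour array each. The protein p62, an autophagy receptor and signalling adaptor, is encoded by Sqstm1. The labels record no change of Sqstm1 in the injected line, so the host cells of a tumour are the ones that lack p62, and neither the exons removed in the KO hosts nor the age of the mice is given in the sources used here. Hosts are numbered as the labels number the mice. Values are log2 intensities of whole tumours, in which 1 unit is a 2-fold difference, and fewer cells of a type cannot be told apart from less RNA per cell.

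Cholesterol is made from acetyl-CoA through mevalonate, squalene and lanosterol, and fatty acids are made from the same precursor by a carboxylase and a multi-domain synthase, then desaturated and elongated. Transcription of both branches is driven by the SREBP proteins, membrane-bound precursors that the escort protein Scap carries from the endoplasmic reticulum to the Golgi for cleavage. Insig proteins hold Scap back when sterol is plentiful. Srebf2 encodes the form best known for the cholesterol branch and Srebf1 the forms best known for the fatty acid branch.

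None of the 33 measured members passed the test between host genotypes (limma, Benjamini-Hochberg adjusted p under 0.05 over all 28192 probe sets), and 0.00355% of all probe sets did. Of these members, 25 had a lower mean in KO hosts and 8 a higher one, against 42.8% of all probe sets with a lower mean. The median difference, KO hosts minus WT hosts, was -0.17 over the members and 0.02 over all probe sets. Only Cyp51 reached an unadjusted p under 0.05, and it lay lower; 1.11% of all probe sets did so in that direction. In no member were all 6 KO tumours on one side of all 6 WT tumours, which held for 0.145% of all probe sets.

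The arrays themselves differed, which touches every difference below. Those of KO hosts 2 and 3 and WT hosts 2 and 5 had interquartile ranges of 2.15 to 2.59, against 2.70 to 2.95 on the other 8, and are called the narrow arrays here. On the narrow arrays, 30 of the 33 members lay lower than on the other 8, with a median difference of -0.38. Of the 14096 probe sets with the brighter means, 9353 also lay lower on the narrow arrays, with a median difference of -0.18. Of the members, 30 belong to that brighter group. Over all 12 tumours, 56.06% of the brighter probe sets and 29.47% of the dimmer ones had a lower mean in KO hosts. Member counts are therefore also given for the 8 tumours with wider arrays, 4 from each genotype. When the fit took in how wide each array's distribution was (its interquartile range), 7 members had an unadjusted p under 0.05 in either direction. Of all probe sets 6.849% did so in that fit, against 2.394% in the fit without that term. No member passed the limma test.

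With the 8 wider arrays, 29 of 33 members had a lower mean in KO hosts, against 52.1% of all probe sets and 47.59% of the brighter ones. They included 16 of 16 members of the cholesterol branch, 9 of 11 of the fatty acid branch and 4 of 6 regulators. The median difference was -0.12 in the cholesterol branch, -0.19 in the fatty acid branch and -0.05 among the regulators, beside -0.14, -0.24 and -0.05 over all 12 tumours. These medians were small and depended on the tumours and the fit. The cholesterol median was -0.045 without KO host 2, -0.071 without WT host 6, -0.089 without KO host 3, -0.23 without WT host 5, -0.048 with array weights and -0.067 with the width of each array in the fit. The fatty acid median was -0.14 with array weights and -0.091 without KO hosts 2 and 3, and -0.34 to -0.17 on omitting any 1 tumour. The regulator median was -0.0049 without KO host 2, -0.080 without KO host 4, -0.090 without WT host 5, -0.031 without WT host 3 and -0.029 without WT host 6. It was -0.086 with a common median per array, -0.016 with array weights, -0.024 with the width of each array in the fit, -0.029 without KO hosts 2 and 3, and 0.0024 after quantile normalization. No member passed the test here either. At an unadjusted p under 0.05, 4 members lay lower, namely Cyp51, Idi1, Sqle and Hmgcs1, while 2.53% of all probe sets did; Insig2 and Me1 lay higher, as did 2.56% of all probe sets. Without KO hosts 2 and 3 alone, which leaves the narrow WT arrays in place, 19 members had a lower mean against 54.5% of all probe sets, and the cholesterol branch had a median of 0.01. With every array set to a common median, 28 members and 53.55% of all probe sets had a lower mean.

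**Figure D1:**
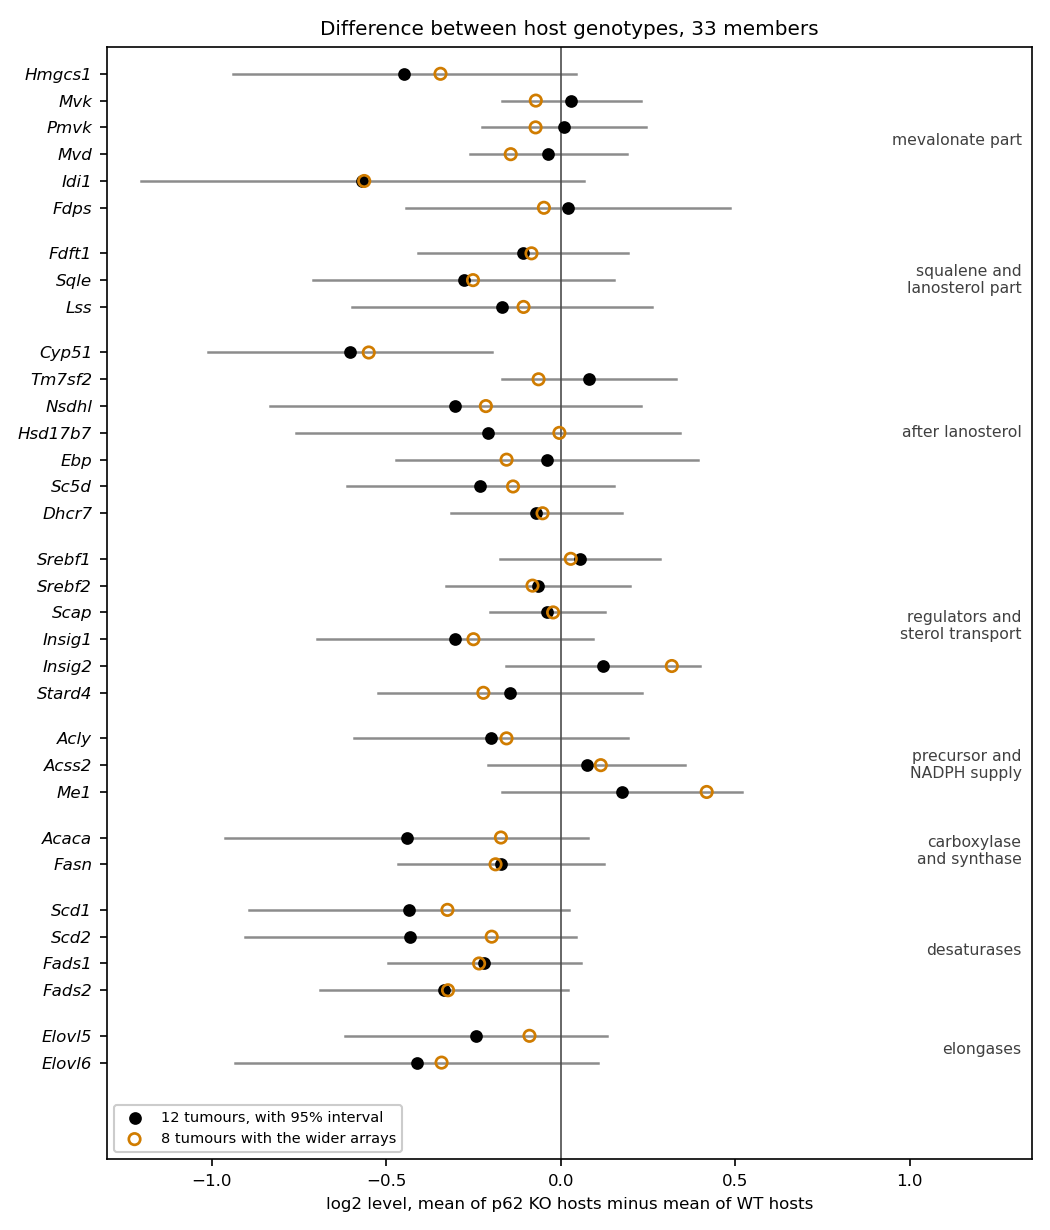
Difference in log2 level between p62 KO and WT hosts for each of the 33 measured members, grouped by role; filled points are all 12 tumours with their 95% intervals, open points the 8 tumours with wider arrays. Most points lie left of 0, Cyp51 has the only interval that does not reach 0, and Insig2 and Me1 lie right of 0 in both sets of tumours.

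In the early, mevalonate part of the pathway, 3 of 6 measured members had a lower mean in KO hosts and 3 a higher one. Hmgcs1, the cytosolic synthase that makes HMG-CoA, had log2 levels of 7.23, 8.05 and 8.36 (lowest, median, highest) in KO hosts and 7.68, 8.25 and 8.78 in WT hosts. The groups overlapped: KO hosts 2 and 3 were the lowest of all 12 tumours, and WT hosts 3 and 6 the highest. Its difference was -0.45 (SE 0.23, 95% interval -0.94 to 0.04, limma adjusted p = 0.9935), and -0.34 with the 8 wider arrays. Without KO hosts 2 and 3 alone it was -0.15.

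Idi1 isomerises isopentenyl diphosphate, the building block of sterols and prenyl groups. Its levels ran from 6.45 through 7.18 to 7.95 in KO hosts and from 6.93 through 7.73 to 8.51 in WT hosts, with KO host 3 at the bottom and WT host 3 at the top. The difference of -0.57 (SE 0.30, 95% interval -1.20 to 0.07, limma adjusted p = 0.9935) was nearly the same with the wider arrays, at -0.56. Without KO hosts 2 and 3 alone it was -0.25. A second probe set annotated to Idi1 differed by only -0.06 (SE 0.20), so the value for this gene depends on the probe set.

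The other 4 genes of the mevalonate steps had differences near 0 over the 12 tumours. Mvk and Pmvk, the kinases that phosphorylate mevalonate in turn, differed by 0.03 (95% interval -0.17 to 0.23) and 0.01 (-0.23 to 0.24). Mvd, the decarboxylase after them, differed by -0.04 (-0.26 to 0.19). Fdps, which joins isoprene units into farnesyl diphosphate, differed by 0.02, but its interval of -0.44 to 0.48 is wide because WT hosts alone ran from 6.43 to 7.93. All 4 had a lower mean in KO hosts over the 8 wider arrays, by -0.05 to -0.14.

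The 3 genes that make squalene and close it to lanosterol all had a lower mean in KO hosts. Sqle, the squalene epoxidase and a rate-limiting step, stood at 8.04, 8.75 and 8.99 in KO hosts and at 8.23, 9.01 and 9.30 in WT hosts. WT host 5 lay among the lowest KO tumours, and the Sqle difference was -0.28 (SE 0.20, 95% interval -0.71 to 0.15, limma adjusted p = 0.9935). Without KO hosts 2 and 3 alone it was -0.04. When the 4 narrow arrays were left out, the 4 remaining KO tumours all lay below the 4 WT tumours, at means of 8.86 ± 0.16 and 9.11 ± 0.13 (SD, n = 4 each). Sqle was the only member with this pattern, which 1.45% of all probe sets showed.

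Lss, the lanosterol synthase, had levels of 5.92, 6.58 and 6.83 in KO hosts and 6.04, 6.65 and 7.02 in WT hosts. The groups overlapped almost throughout, with a difference of -0.17 (95% interval -0.60 to 0.26). Fdft1, the squalene synthase, differed by -0.11 (-0.41 to 0.19), and its second probe set by -0.19.

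After lanosterol, 6 of 7 members had a lower mean in KO hosts, and Cyp51 differed most. Cyp51 encodes the cytochrome P450 that removes a methyl group from lanosterol. It stood at 8.06, 8.74 and 9.06 in KO hosts and at 8.91, 9.25 and 9.63 in WT hosts. WT hosts 1, 3 and 6 lay above every KO tumour, whereas WT hosts 2, 4 and 5 lay within the upper KO range. The difference was -0.60 (SE 0.19, 95% interval -1.01 to -0.20), the lowest unadjusted p of any member at 0.0067 and an adjusted p of 0.9935 in limma. It was -0.55 with the 8 wider arrays, -0.39 without KO hosts 2 and 3, and between -0.68 and -0.48 on omitting any 1 tumour.

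Sc5d, which sets the ring double bond late in the pathway, ran from 7.63 through 8.24 to 8.56 in KO hosts and from 8.08 through 8.36 to 8.77 in WT hosts. Only KO hosts 2 and 3 lay below the WT range, and the difference was -0.23 (95% interval -0.61 to 0.15). Nsdhl and Hsd17b7, which act together in stripping methyl groups from the sterol ring, differed by -0.30 (-0.83 to 0.23) and -0.21 (-0.76 to 0.34). The Hsd17b7 difference was near 0 in the 8 wider arrays. Ebp, the sterol isomerase, differed by -0.04 and Dhcr7, the final reductase, by -0.07, while Tm7sf2, a sterol reductase acting just after Cyp51, differed by 0.08 with KO host 3 highest at 6.23.

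The promoters of 4 members show what the early and late genes carry ahead of their start sites. They are the 3 cholesterol genes and the 1 fatty acid gene with the smallest unadjusted p among those with a single promoter in the table, chosen by that rule with their values in view. Each sequence holds the 250 bases before the RefSeq start in build GRCm38.p6, on the strand of the gene. Capitals mark matches, on either strand, to TCACNCCAC (a form of the sterol response element), CCAAT (read as ATTGG on the other strand) or CACGTG (the E-box).
Cyp51, chr5:4104698-4104947, minus strand: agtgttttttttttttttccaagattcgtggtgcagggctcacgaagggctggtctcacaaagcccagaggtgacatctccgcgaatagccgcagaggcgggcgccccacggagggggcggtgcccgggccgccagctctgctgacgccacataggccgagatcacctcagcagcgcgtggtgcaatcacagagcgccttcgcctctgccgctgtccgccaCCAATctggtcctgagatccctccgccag
Hmgcs1, chr13:119690101-119690350, plus strand: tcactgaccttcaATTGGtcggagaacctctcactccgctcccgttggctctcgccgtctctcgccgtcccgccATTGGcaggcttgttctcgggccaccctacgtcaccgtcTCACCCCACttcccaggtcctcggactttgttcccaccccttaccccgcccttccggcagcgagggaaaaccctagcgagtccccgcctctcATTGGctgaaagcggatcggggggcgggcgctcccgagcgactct
Idi1, chr13:8885356-8885605, plus strand: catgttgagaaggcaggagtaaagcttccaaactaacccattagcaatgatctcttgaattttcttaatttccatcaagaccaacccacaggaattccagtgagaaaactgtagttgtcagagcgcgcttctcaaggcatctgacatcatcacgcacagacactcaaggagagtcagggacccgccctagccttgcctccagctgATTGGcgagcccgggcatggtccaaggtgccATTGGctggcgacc
Fads2, chr19:10101504-10101753, minus strand: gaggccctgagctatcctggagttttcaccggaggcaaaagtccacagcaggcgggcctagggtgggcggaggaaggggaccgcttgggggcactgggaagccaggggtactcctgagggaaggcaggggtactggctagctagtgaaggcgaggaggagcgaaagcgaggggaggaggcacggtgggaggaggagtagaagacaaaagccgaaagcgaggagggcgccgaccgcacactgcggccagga

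Cyp51 has a single CCAAT match that begins 29 bases before the start. Hmgcs1 has a sterol response element match beginning 137 bases before the start, with CCAAT matches on the opposite strand at 45, 176 and 237 bases before it and another 10 bases after it, outside the printed stretch. Idi1 has CCAAT matches on the opposite strand at 14 and 45 bases before the start. The Fads2 stretch has no match to these 3 motifs. Stretches without a TCACNCCAC match, that of Cyp51 among them, were not searched for other forms of the sterol response element.

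Over windows of 300 bases, from 250 before to 50 after the start, 27 of the 34 named members were in the promoter table. A CCAAT match on either strand was present in 22 of the 27 (81.5%), against 42.3% of 17492 protein-coding genes, and in 13 of 14 cholesterol, 5 of 8 fatty acid and 4 of 5 regulator promoters. GGGCGG, the core of the Sp1 site, was found in 22 of 27 as well, against 49.2%. These shares over all genes were not matched for brightness, and 30 of the measured members belong to the brighter group of probe sets. CACGTG was found in 6 of 27 (22.2%) against 8.9%, and TCACNCCAC only in Hmgcs1 against 1.4%. A gene counted when any of its windows held the letters, and these matches do not show that a factor binds. TCACNCCAC was the only form of the sterol response element searched, so a missing match does not show that a promoter lacks the element.

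Among the 6 regulators and carriers, 4 had a lower and 2 a higher mean in KO hosts. Srebf2 stood at 7.78, 8.13 and 8.35 in KO hosts and 7.77, 8.22 and 8.35 in WT hosts, ranges that were all but identical, with a difference of -0.06 (95% interval -0.33 to 0.20). Srebf1 stood at 6.83, 7.06 and 7.31 in KO hosts and 6.82, 6.96 and 7.22 in WT hosts, with a difference of 0.05 (-0.18 to 0.28). Scap, the escort protein, had the smallest spread over tumours of any member (SD 0.08 over 12) and differed by -0.04 (-0.20 to 0.13).

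The retention proteins Insig1 and Insig2 had differences of opposite sign, neither of which passed the test. Insig1, itself a target of the SREBP proteins, stood at 8.36, 8.83 and 9.29 in KO hosts and 8.69, 8.99 and 9.62 in WT hosts, with a difference of -0.30 (95% interval -0.70 to 0.09). KO hosts 2 and 3 were the 2 lowest, and the other 4 KO tumours lay inside the WT range. Insig2 stood at 8.28, 8.80 and 8.97 in KO hosts and 8.37, 8.58 and 8.69 in WT hosts. KO hosts 2 and 3 were below all WT tumours and KO hosts 1, 4, 5 and 6 above all of them, so the difference of 0.12 (SE 0.13, limma adjusted p = 0.9935) joins tumours from both ends.

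With the 8 wider arrays Insig2 averaged 8.86 ± 0.09 in KO hosts and 8.54 ± 0.16 in WT hosts (SD, n = 4 each), a difference of 0.32 (limma adjusted p = 0.8192). The only other member with all 4 KO tumours above all 4 WT tumours was Me1, and 1.39% of all probe sets had this pattern. Stard4, a carrier of sterol between membranes, differed by -0.14 (95% interval -0.52 to 0.23).

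Of the 3 genes that supply precursor and reducing power, Me1 and Acss2 had a higher mean in KO hosts and Acly a lower one. Me1, the cytosolic malic enzyme that makes NADPH, stood at 8.66, 9.22 and 9.59 in KO hosts and 8.73, 8.94 and 9.24 in WT hosts, a difference of 0.18 (SE 0.16, 95% interval -0.17 to 0.52, limma adjusted p = 0.9935). As with Insig2, KO hosts 2 and 3 were the lowest of all, and the 8 wider arrays gave 9.34 ± 0.17 in KO hosts against 8.92 ± 0.15 in WT hosts (SD, n = 4 each). That difference of 0.42 did not pass (limma adjusted p = 0.743), and a second probe set differed by 0.28 over all 12 tumours.

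Acly, which cleaves citrate to cytosolic acetyl-CoA, stood at 7.02, 7.72 and 7.99 in KO hosts and 7.30, 7.86 and 8.29 in WT hosts, with KO host 2 alone below the WT range. The difference was -0.20 (95% interval -0.59 to 0.19). Acss2, which makes acetyl-CoA from acetate, differed by 0.07 (-0.21 to 0.36).

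Both genes of the committed steps had a lower mean in KO hosts. Acaca, the acetyl-CoA carboxylase, stood at 7.53, 8.86 and 8.93 in KO hosts and 8.42, 9.02 and 9.23 in WT hosts. Its difference of -0.44 (95% interval -0.96 to 0.08, limma adjusted p = 0.9935) rested largely on KO hosts 2 and 3, at 7.53 and 7.96, and was -0.17 over the 8 wider arrays and -0.06 without those hosts. Its second probe set differed by -0.36. Fasn, the fatty acid synthase, stood at 7.21, 7.59 and 7.73 in KO hosts and 7.27, 7.77 and 8.09 in WT hosts, with WT hosts 2, 3, 4 and 6 above every KO tumour. The Fasn difference was -0.17 (SE 0.14, 95% interval -0.46 to 0.12) and -0.19 with the wider arrays.

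All 4 desaturases had a lower mean in KO hosts, over 12 tumours, over 8 and without KO hosts 2 and 3. Scd1, which makes oleate from stearate, stood at 7.78, 8.25 and 9.12 in KO hosts and 8.31, 8.85 and 8.98 in WT hosts. KO host 6 had the highest level of all 12 tumours and KO host 5 the lowest, and the KO group had an SD of 0.52 against 0.26 in the WT group. The difference was -0.43 (SE 0.21, 95% interval -0.89 to 0.02, limma adjusted p = 0.9935). Scd2, a related desaturase similar to Scd1 in sequence, had the same pair of extremes among the wider KO arrays, KO host 5 at 7.86 and KO host 6 at 8.76. Its difference was -0.43 over 12 tumours and -0.20 over 8.

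Fads2, which opens the synthesis of polyunsaturated fatty acids, stood at 7.28, 7.64 and 8.15 in KO hosts and 7.75, 7.93 and 8.56 in WT hosts. KO hosts 2, 3, 5 and 6 lay below every WT tumour, and KO hosts 1 and 4 within the WT range. The difference of -0.33 (SE 0.17, 95% interval -0.69 to 0.02, limma adjusted p = 0.9935) was -0.32 with the wider arrays. Fads1, the desaturase that acts after it, differed by -0.22 (-0.49 to 0.06) and -0.23.

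Both elongases had a lower mean in KO hosts. Elovl6, which extends palmitate to stearate, stood at 7.75, 8.53 and 9.07 in KO hosts and 8.16, 8.88 and 9.48 in WT hosts, with a difference of -0.41 (95% interval -0.93 to 0.11) and -0.34 with the wider arrays. Elovl5, an elongase of polyunsaturated fatty acids, stood at 7.80, 8.50 and 8.90 in KO hosts and 8.35, 8.63 and 8.97 in WT hosts. Only KO hosts 2 and 3 were below the WT range, and the Elovl5 difference was -0.24 over 12 tumours and -0.09 over 8. Without KO hosts 2 and 3 alone, Elovl6 differed by -0.12 and Elovl5 by -0.0028.

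**Figure D2:**
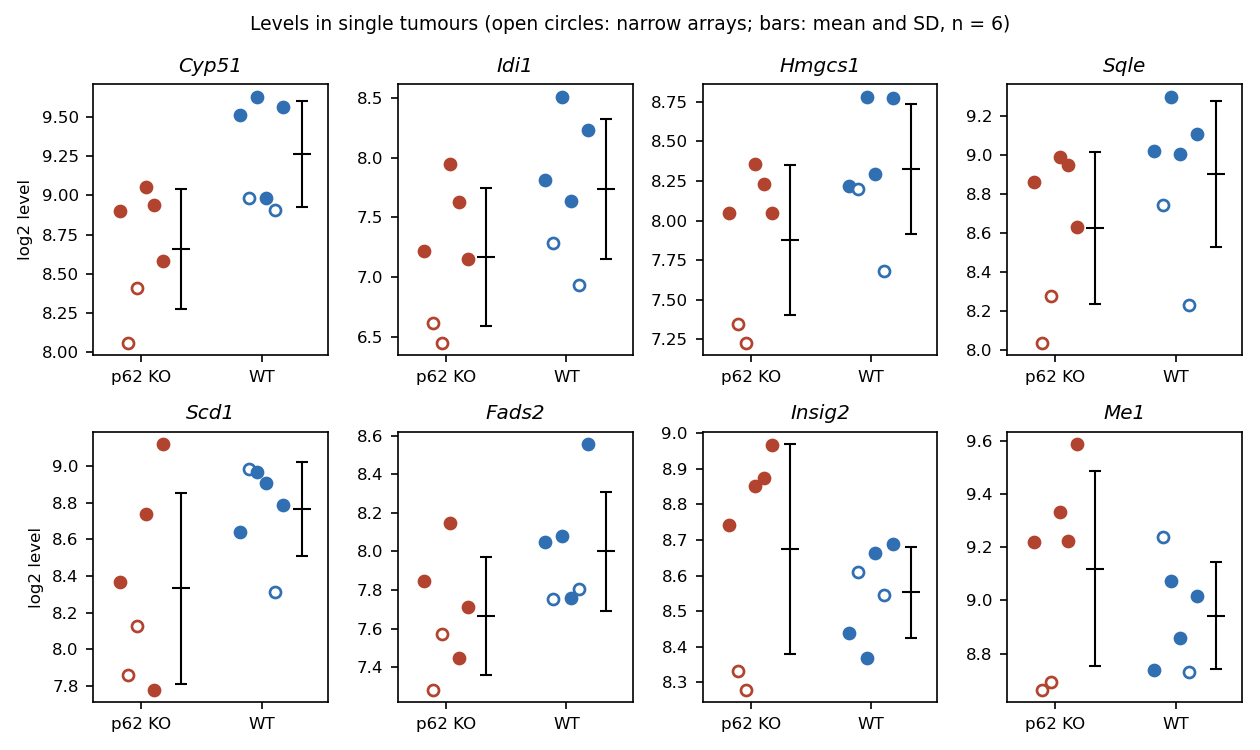
Log2 level of 8 members in each tumour, KO hosts in red and WT hosts in blue, with open circles for the narrow arrays and bars for the mean and SD (n = 6). Among the filled circles Cyp51 and Fads2 have lower means in KO hosts with overlap, whereas the filled KO circles of Insig2 and Me1 lie above those of WT hosts and the open KO circles below.

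Across tumours 23 of 33 members had an SD over the 12 tumours above the median of all probe sets (0.23). The members' own median SD was 0.34. That baseline was not matched for brightness, and 30 of the members belong to the brighter group. Over the 8 wider arrays the SD was 0.13 for Acaca and 0.19 for Sqle, against 0.51 and 0.39 over all 12. For Scd1 it was 0.42, against 0.45 over all 12. Idi1 covered the widest range, 2.07 log2 units or 4.19-fold, and Scap the narrowest, 0.32 units. KO host 2 held the lowest of the 12 values for 16 members and KO host 3 for 6, and WT host 5 for 4. The highest value lay in WT host 3 for 13 members, in WT host 6 for 7 and in KO host 6 for 5. By comparison KO host 2 held the lowest value for 21.55% of the brighter probe sets, KO host 3 for 30.43% and WT host 5 for 5.62%. The highest value was counted only over all probe sets, bright and dim together. It lay in WT host 3 for 9.65%, in WT host 6 for 5.64% and in KO host 6 for 7.98%. KO host 3, a narrow array, held it for 30.04%, so the member counts of highest values have no baseline of like brightness.

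**Figure D3:**
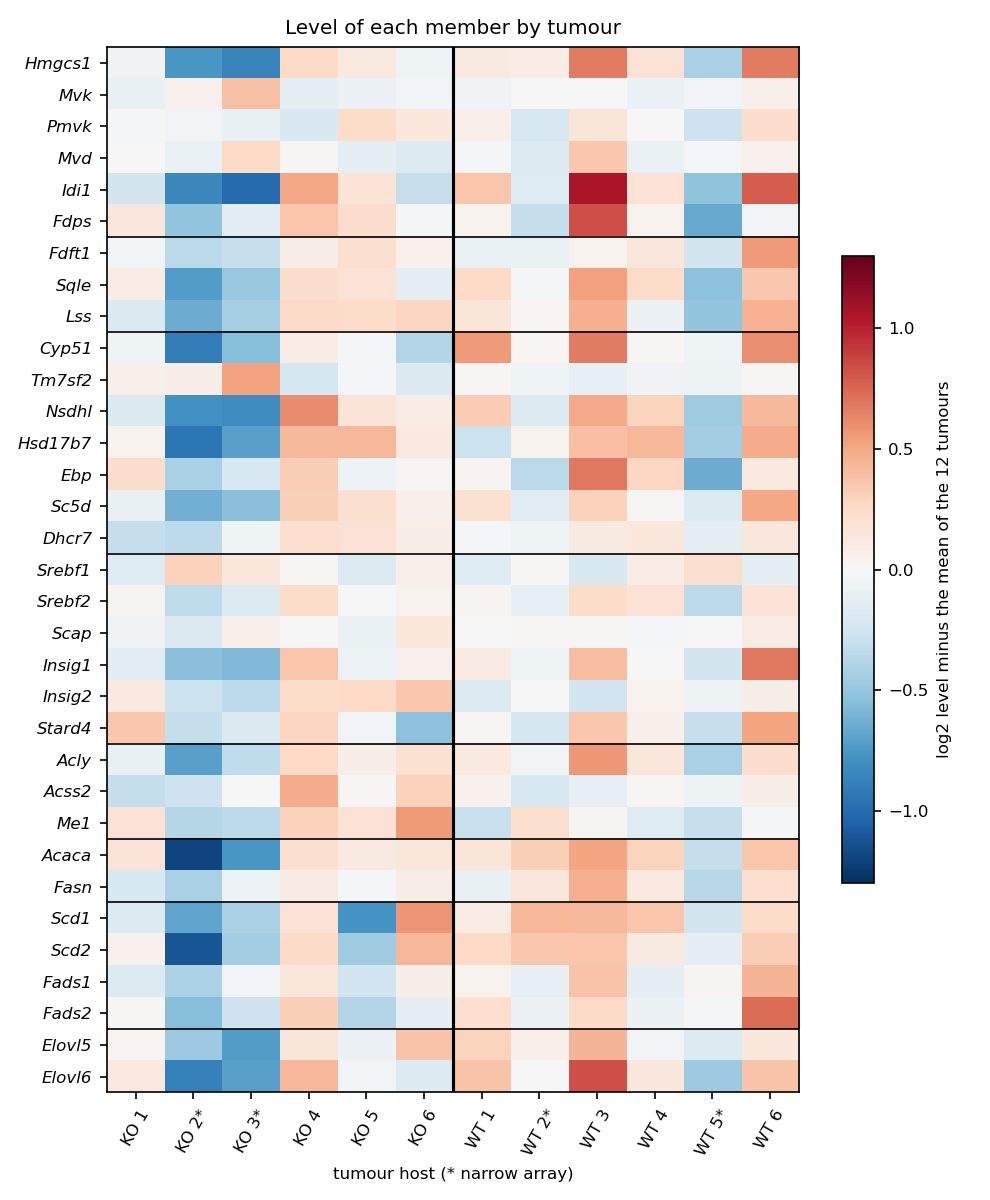
Log2 level of each member in each tumour, as the deviation from that member's mean over the 12 tumours; rows are grouped by role, a vertical line parts KO from WT hosts and asterisks mark the narrow arrays. KO hosts 2 and 3 and WT host 5 are low for most members, WT hosts 3 and 6 are high, and Mvk, Tm7sf2 and Srebf1 run against that pattern.

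Both branches followed the same order of tumours in broad terms. The mean over the 16 cholesterol members was 7.23 ± 0.26 in KO hosts and 7.41 ± 0.28 in WT hosts, and the mean over the 11 fatty acid members 8.09 ± 0.35 and 8.33 ± 0.21 (SD, n = 6 each). Cholesterol means ran from 6.83 in KO host 2 to 7.74 in WT host 3, and the same 2 tumours were the extremes of the fatty acid branch, at 7.57 and 8.59. Subtracting the fatty acid mean from the cholesterol mean within each tumour gave -0.86 ± 0.18 in KO hosts and -0.92 ± 0.10 in WT hosts. These differed by 0.06, less than the SD in either group, and by -0.04 over the 8 wider arrays. KO hosts 5 and 6 set the ends of this balance at -0.61 and -1.14: KO host 6 was high in Scd1, Scd2 and Me1 and KO host 5 low in Scd1, Scd2 and Fads2.

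**Figure D4:**
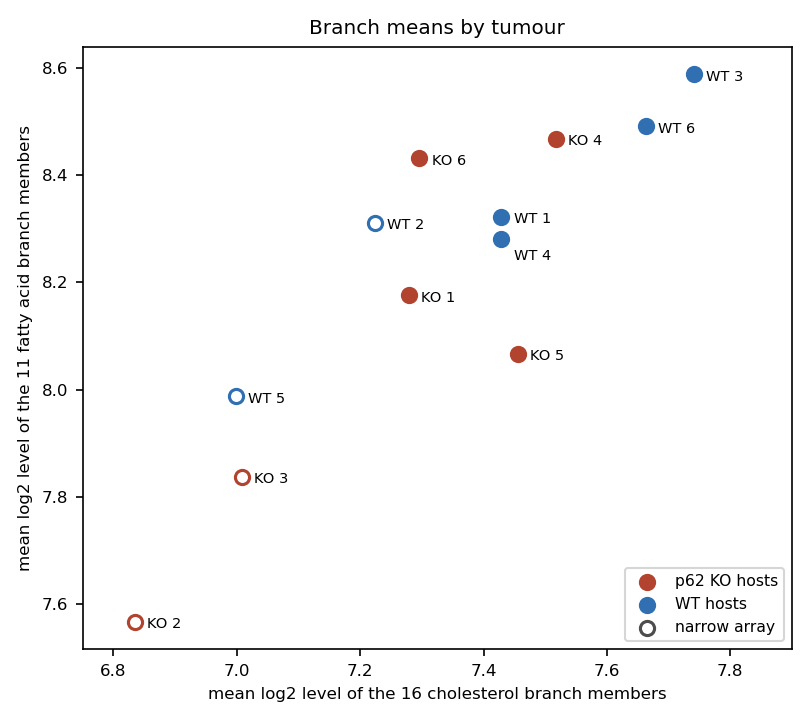
Mean log2 level of the 11 fatty acid branch members against that of the 16 cholesterol branch members in each tumour, KO hosts in red, WT hosts in blue and open circles for narrow arrays. The tumours run from KO host 2 at the lower left to WT host 3 at the upper right, and KO hosts 5 and 6 lie farthest to either side of that run.

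For 8 pairs of members, chosen by name with earlier results of these data known, levels were compared across the 12 tumours. Permutation p-values were adjusted over these 8 pairs alone. Hmgcs1, Insig1 and Sqle moved closely together. Insig1 and Hmgcs1 had Pearson's r of 0.943 (permutation p = 2e-05, the smallest the permutations can give, adjusted 8e-05) and Spearman's rho of 0.874 (p = 0.00044, adjusted 0.00149). Hmgcs1 and Sqle had r of 0.936 (permutation p = 2e-05, adjusted 8e-05) and rho of 0.923 (p = 0.00012, adjusted 0.00096). Without the 2 tumours farthest from the median of the first gene, r was 0.919 and 0.896, and within the 8 wider arrays 0.874 and 0.855, where rho was 0.714 and 0.833 (adjusted exact permutation p = 0.154 and 0.112).

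Srebf2 followed Sqle with r of 0.922 (permutation p = 0.0002, adjusted 0.000533) and rho of 0.811 (p = 0.00234, adjusted 0.00374), and Hmgcs1 with r of 0.85 (permutation p = 0.00096, adjusted 0.00192) and rho of 0.832 (p = 0.00122, adjusted 0.00244). Without the 2 farthest tumours r was 0.829 and 0.805. Within the 8 wider arrays r was 0.634 and 0.724, adjusted exact permutation p = 0.129 and 0.091, and after quantile normalization Srebf2 and Hmgcs1 had r of 0.421 (adjusted permutation p = 0.202). All genes of a tumour share an array, and the array's range moved with most members.

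In the fatty acid branch Acaca and Fasn had r of 0.76 (permutation p = 0.00412, adjusted 0.00659) and rho of 0.867 (p = 0.00056, adjusted 0.00149). Without the 2 farthest tumours r was 0.904 and rho 0.891, and within the 8 wider arrays r was 0.881 and rho 0.786 (adjusted exact permutation p = 0.0176 and 0.112). Srebf1 was compared with 2 members of its branch. Srebf1 and Fasn had r of -0.556 (permutation p = 0.0628, adjusted 0.0718) and rho of -0.448 (p = 0.147, adjusted 0.167), and r was -0.167 without the 2 farthest tumours and 0.06 within the 8 wider arrays. Srebf1 and Scd1 had r of -0.222 (permutation p = 0.478, adjusted 0.478) and rho of -0.154 (p = 0.634, adjusted 0.634), with r of 0.197 and 0.543 in the same subsets. Across the branches Cyp51 and Fasn had r of 0.645 (permutation p = 0.0253, adjusted 0.0338) and rho of 0.72 (p = 0.0119, adjusted 0.0159). Without KO host 2 and WT host 3, r was 0.238 and rho 0.515 (adjusted permutation p = 0.638 and 0.178). Within the 8 wider arrays r was 0.479 and rho 0.643 (adjusted exact permutation p = 0.274 and 0.154). After subtracting host group means r was 0.587 and rho 0.741 (adjusted permutation p = 0.0677 and 0.0124).

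The pathway's further genes were taken from 5 lists of 70 names, of which 57 were measured. None passed the limma test, none had an unadjusted p under 0.05, and 30 had a lower and 27 a higher mean in KO hosts, with a median difference of -0.04. Among all probe sets 42.8% had a lower mean, and among the brighter ones 56.06%. The 6 measured further genes of sterol and isoprenoid synthesis all had a lower mean. Largest were Msmo1, the sterol methyl oxidase that acts beside Nsdhl, at -0.37 (SE 0.30), and Ggps1, which makes geranylgeranyl diphosphate, at -0.29 (SE 0.21). The mean of these 6 genes also moved with the arrays, at 7.52 to 8.15 on the narrow ones and 8.19 to 8.50 on the others. Of 7 SREBP processing genes, 5 had a lower mean, among them the ubiquitin ligase Rnf139 at -0.24 (SE 0.13), whereas Lpin1 differed by 0.16 (SE 0.08). Their mean was 7.28 to 7.64 on the narrow arrays and 7.68 to 7.85 on the others. In the remaining lists these ranges overlapped. In the list of sterol sensing, efflux and esterification 5 of 11 had a lower mean, with Ch25h, the cholesterol hydroxylase, at 0.25 (SE 0.24) and the sterol receptor Nr1h3 at 0.15 (SE 0.12). Fatty acid activation and esterification split 12 to 13, with Acsl5, an acyl-CoA synthetase, at -0.26 (SE 0.17) and Me3, a mitochondrial malic enzyme, at 0.12 (SE 0.09). Fatty acid oxidation had 2 of 8 lower, with Ppara at 0.14 (SE 0.10) and Cpt2 at 0.12 (SE 0.10).

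Markers of other cells that make or store lipid were set beside these values. Of 10 measured adipocyte genes, 9 had a higher and 1 a lower mean in KO hosts. Among all probe sets 42.8% had a lower mean, and among the dimmer ones 29.47%. The list's mean level ran from 6.36 to 6.72 in KO tumours and 5.90 to 6.42 in WT tumours. It ran from 6.39 to 6.72 on the narrow arrays and from 5.90 to 6.64 on the others. Its defining markers Adipoq, Plin1 and Cidec differed by 0.08, 0.17 and -0.03, and Lep, the member of this list with the lowest unadjusted p, differed by 0.41 (SE 0.11, unadjusted p = 0.00259, limma adjusted p = 0.9935). All 6 neutrophil markers had a higher mean in KO hosts, with a list mean of 5.44 to 6.17 in KO tumours and 5.37 to 5.72 in WT tumours, and S100a8, S100a9 and Ly6g differing by 0.43, 0.58 and 0.44. Of the prostate and seminal vesicle gland genes, 7 of 10 lay below the lower quartile of the array in every tumour, and the list mean was 4.10 in KO hosts and 4.01 in WT hosts. Epithelial markers, the lineage of the injected line, had list means of 6.32 and 6.22, and all 6 had a higher mean in KO hosts. Of these 6 markers, 1 lay below the lower quartile of the array in every tumour. Their list mean was 6.38 to 6.62 on the narrow arrays and 5.98 to 6.40 on the others, with Krt8, Krt18 and Epcam differing by 0.02, 0.20 and 0.02.

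Fibroblast markers had list means of 9.36 in KO hosts and 9.43 in WT hosts, ranging from 8.89 to 9.39 on the narrow arrays and from 9.23 to 9.77 on the others. Their defining genes Pdgfra, Col1a1 and Dcn differed by 0.01, -0.03 and -0.03. Cycling genes had list means of 9.21 and 9.33, with Mki67 at -0.07 and Top2a at -0.11, and a range of 8.66 to 9.28 on the narrow arrays against 9.18 to 9.65. Macrophage markers had list means of 9.46 and 9.33, with 6 of 7 higher in KO hosts, and lay between 8.82 and 9.26 on the narrow arrays and 9.28 and 9.73 on the others. Endothelial, T cell and muscle lists had means of 8.02, 6.33 and 7.12 in KO hosts and 8.04, 6.41 and 7.05 in WT hosts. No gene of these lists passed the test, and the part of these cell types in the member differences was not tested.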

How the data were processed

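Whole-tumour RNA of 12 mice, 6 p62 KO and 6 WT hosts, was measured on 1 single-colour array each. The authors deposited 1 log2 intensity for each probe set, obtained with RMA (background correction, normalization between arrays and summary over probes), per the submitters' processing notes, which give no version; labelling used the Ovation Pico WTA kit, per the labels' protocols. Of 34760 rows, the 6568 with the lowest identifiers were taken as controls, a boundary set from the identifiers after the table was seen, and 28192 were tested. Of these 21640 have 1 gene symbol, 1321 several and 5231 none, and updating symbols through Entrez identifiers changed 0. Where several probe sets carried one symbol, the brightest on average represented the gene.

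KO and WT hosts were set against each other in R 4.3.3 with limma 3.58.1 (lmFit, eBayes, no covariate, two-sided, Benjamini-Hochberg over all tested probe sets, threshold adjusted p under 0.05), after a trial on simulated data with known changes. Correlations used two-sided permutation tests (100000 draws, exact for 8 tumours). Members, lists and pairs were chosen with earlier results of these data known. Levels are given per tumour group for the 2 members of each role with the smallest unadjusted p and for Hmgcs1, Sqle, Srebf1, Srebf2, Insig1, Fasn and Scd1; pathway lists name their 2 genes with the smallest unadjusted p, and marker lists their first genes. Deviations of same-numbered mice from their group means correlated from -0.55 to 0.37, so the numbers were not taken to pair the tumours. Alternatives were other scalings, filters, variance models, probe set rules and left-out tumours. The hosts are separate mice. Arrays have no counting depth, detection calls were not used, and the number of arrays limits the precision. Plots were drawn with matplotlib 3.10.9. Promoter sequences are from RefSeq, and 7 members are not in the table used here.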

Additional observations from a re-analysis of the deposited data

Results flagged for a closer look

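Mvk, the mevalonate kinase, stood at 7.12 in KO host 3, a narrow array, while the other 5 KO tumours lay between 6.61 and 6.79, so that this tumour stood apart from its group. Scap stood at 8.23 in WT host 6, above the other 5 WT tumours, which lay between 8.12 and 8.16. Each was found by the gap of the most extreme tumour to its nearest neighbour as a share of the group's range. Such a gap arises by chance in about 1 in 20 groups, and 66 groups of 6 were examined, of which these 2 were marked.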

How the results depend on the processing

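No member passed the test under any alternative, and the 57 further pathway genes did not either. Of 759 comparisons of a member's difference with an alternative, 44 turned direction, in 17 members. Part of the 759 could not turn. Leaving out dim probe sets, the other variance model, the replicate block and 1 probe set per gene leave a member's difference unchanged. The 16 members that kept direction throughout include Cyp51, Hmgcs1, Idi1, Sqle, Insig1, Insig2, Me1, Acaca, Fasn and all desaturases and elongases. Their sizes did not all hold. Without KO hosts 2 and 3 alone the difference was -0.043 for Sqle, -0.062 for Acaca and -0.0028 for Elovl5, but -0.39 for Cyp51 and 0.40 for Me1. The count of probe sets passing was 1, and 0 with the mouse number as a replicate block, without KO hosts 2 and 3, or with all rows tested, and 0 to 1 when single tumours were left out. Members at an unadjusted p under 0.05 numbered 1, but 6 after quantile normalization, 3 with array weights, 7 with the interquartile range as a covariate, 2 with the replicate block, 3 without KO hosts 2 and 3, 6 without the 4 narrow arrays, and 1 to 8 with single tumours left out (8 without KO host 4, 7 without WT host 5). Over all probe sets the share at an unadjusted p under 0.05 in limma also moved. It was 2.394% in the main fit, 3.48% after quantile normalization and 6.523% with array weights. With the interquartile range as a covariate it was 6.849%, and with the replicate block 1.859%. It was 7.719% without KO hosts 2 and 3, 5.094% without the 4 narrow arrays, 3.583% without KO host 4 and 2.76% without WT host 5. The cause of these changes was not tested.

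Differences that turned direction were as follows. A common median per array gave -0.0038 for Mvk, -0.026 for Pmvk and -0.014 for Fdps. Quantile normalization gave -0.043 for Pmvk and 0.023 for Scap. Array weights gave -0.049 for Mvk, 0.00425 for Lss, -0.047 for Tm7sf2, 0.099 for Hsd17b7, 0.015 for Ebp and -0.00760 for Srebf1, and the interquartile range as a covariate gave 0.036 for Ebp. Without the narrow arrays the values were -0.071 for Mvk, -0.072 for Pmvk, -0.048 for Fdps and -0.063 for Tm7sf2. Without KO hosts 2 and 3 they were -0.069 for Mvk, 0.026 for Fdft1, 0.059 for Lss, -0.052 for Tm7sf2, 0.022 for Nsdhl, 0.15 for Hsd17b7, 0.11 for Ebp, 0.0039 for Sc5d, 0.010 for Dhcr7, -0.041 for Srebf1, 0.047 for Srebf2 and 0.0092 for Acly. With single tumours left out the range was -0.041 to 0.060 for Mvk, -0.044 to 0.055 for Pmvk, -0.090 to 0.031 for Mvd, -0.11 to 0.19 for Fdps, -0.015 to 0.14 for Tm7sf2, -0.17 to 0.094 for Ebp and -0.015 to 0.14 for Acss2.

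By Pearson's r, 6 of the 8 correlations passed an adjusted permutation p under 0.05. Within the 8 wider arrays 3 did (Insig1 with Hmgcs1, Hmgcs1 with Sqle, Acaca with Fasn), and after quantile normalization 3 did (the first 2 and Srebf2 with Sqle). After subtracting host group means 5 passed by r and 6 by rho, and Cyp51 with Fasn no longer passed by r. By Spearman's rho 6 passed over the 12 tumours, 0 within the 8 wider arrays (lowest adjusted exact permutation p 0.112) and 3 after quantile normalization. Within the 8 wider arrays r was 0.0553 for Srebf1 with Fasn and 0.543 for Srebf1 with Scd1, and 0.197 for the latter without the 2 farthest tumours.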
